A study of Mus musculus with 2 samples.

Results

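The BCL2 family was followed through 10 genes chosen by name from the 31053 genes of the count matrix: the survival genes Mcl1, Bcl2 and Bcl2l1, the pore-forming effectors Bax and Bak1, and the BH3-only genes Bcl2l11, Bbc3, Pmaip1, Bid and Bad. The measurements came from mouse bone marrow LSK cells (lineage-negative, Sca-1-positive, c-Kit-positive), the fraction that holds haematopoietic stem cells (HSCs) and multipotent progenitors, profiled by CITE-seq, in which antibody-derived tags are counted beside the transcripts of each cell. The mice were C57BL/6JRj, young (3 to 5 months) or old (22 to 28 months), with 4 animals pooled per age and 1 library per age. No label used here ties a barcode suffix to an age, so the libraries are called suffix 1 and suffix 2 and no age comparison was made. With 1 library per suffix there are no replicates, and every interval below is a 95% interval that covers counting error only, because cells of a library are not replicates.

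Proteins of this family decide whether the outer mitochondrial membrane stays intact. MCL1, BCL2 and BCL-XL (the long product of Bcl2l1) hold the effectors BAX and BAK in check, whereas the BH3-only proteins, which sense growth factor loss, DNA damage or other stress, occupy the survival proteins or engage the effectors directly. MCL1 is a short-lived protein known to be needed for HSC survival, and BCL2 is best known for the survival of lymphoid cells.

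After the filter on cells (under 10% mitochondrial UMIs and over 1500 detected genes), 3986 tagged cells were available, 1497 of suffix 1 and 2489 of suffix 2, with 0 barcodes shared by the libraries. In each library the CD150 tag was split at its 75th and the CD48 tag at its 25th percentile. This gave 555 CD150-high CD48-low cells, the combination that marks HSCs and here called the stem gate (172 of suffix 1 and 383 of suffix 2), 454 CD150-low CD48-low cells, 450 CD150-high CD48-high cells and 2527 CD150-low CD48-high cells, here called the progenitor gate (912 and 1615). Transcripts separated the stem from the progenitor gate, since Mecom stood at 152 CPM (the usual counts-per-million scale, relative to all UMIs of the same cells) in the stem gate and 43.5 CPM in the progenitor gate, whereas Flt3 stood at 5.45 and 185 CPM. The 7 stem cell markers summed to 1565 CPM in the stem gate, 1624 CPM in the CD150-low CD48-low gate, 1211 CPM in the CD150-high CD48-high gate and 804 CPM in the progenitor gate, so the list did not set the stem gate apart from the other CD48-low gate. The gates also differed in depth and proliferation, since the median cell held 13334, 11556.5, 16660 and 16343 UMIs in the order above and 12.4%, 16.1%, 37.8% and 51.4% of cells had a UMI of Mki67 or Top2a, genes of dividing cells. Tags for CLCA3A1 were also collected and not used here. Tag counts were not on the same scale in the libraries, with CD150 limits of 40 and 407 tags and CD48 limits of 224 and 42 tags for suffix 1 and suffix 2. The progenitor gate held 11 cells with over 5% of their UMIs in immunoglobulin genes and the stem gate 0; the values without them stand beside the results.

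The 3 survival genes differ in the 250 bases before their transcription starts, which are shown because the results turn on the contrast between these genes. They were taken from RefSeq (GRCm38.p6) for Mcl1 at chr3:95658471-95658720 (plus strand), Bcl2 at chr1:106714291-106714540 (minus strand) and the most upstream of 3 listed starts of Bcl2l1 at chr2:152831729-152831978 (minus strand). Capitals mark the GC box (GGGCGG on either strand).
Mcl1: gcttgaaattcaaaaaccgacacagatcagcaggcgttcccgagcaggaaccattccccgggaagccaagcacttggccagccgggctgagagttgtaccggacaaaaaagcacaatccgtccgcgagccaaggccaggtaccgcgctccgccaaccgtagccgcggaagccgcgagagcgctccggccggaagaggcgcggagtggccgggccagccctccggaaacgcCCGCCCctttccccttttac
Bcl2: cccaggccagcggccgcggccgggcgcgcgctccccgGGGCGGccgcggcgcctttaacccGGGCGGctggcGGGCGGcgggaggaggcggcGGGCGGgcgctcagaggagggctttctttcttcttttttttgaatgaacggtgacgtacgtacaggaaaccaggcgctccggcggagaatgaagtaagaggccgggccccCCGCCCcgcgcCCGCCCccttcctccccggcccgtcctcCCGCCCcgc
Bcl2l1: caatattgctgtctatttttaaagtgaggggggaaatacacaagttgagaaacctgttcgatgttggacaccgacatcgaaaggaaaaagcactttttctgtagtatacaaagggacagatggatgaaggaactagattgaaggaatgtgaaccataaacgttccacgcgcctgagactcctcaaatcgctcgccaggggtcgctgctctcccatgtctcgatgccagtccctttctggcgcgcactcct
The Bcl2 window held 7 GC boxes and was 74.8% G or C, the Mcl1 window held 1 and was 64.4% G or C, and the Bcl2l1 window held 0 and was 47.6% G or C, against a median of 52.4% over all 32851 promoters, of which 32.7% hold a GC box. An E-box (CANNTG) occurred once each before Mcl1 and Bcl2l1 and not before Bcl2, and 66.2% of all promoters hold one. The ETS motif CCGGAAG occurred once before Mcl1, and 6.91% of all promoters hold it. The CCAAT box (its letters as its name), the GATA motif AGATAA, the STAT motif TTCNNNGAA and the TATA motif TATAAA, each searched on both strands, matched none of the 3 windows and are held by 33.8%, 9.99%, 7.02% and 12.4% of all promoters. These matches describe letters only and say nothing about binding.

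Mcl1 was the most abundant survival transcript in every gate of each library. UMIs of the 3' assay count 1 per molecule, so genes were compared without division by length, although capture can differ between genes. In the stem gate Mcl1 made up 65.4% (63.3 to 67.4) of the summed Mcl1, Bcl2 and Bcl2l1 UMIs, Bcl2 29.3% (27.4 to 31.2) and Bcl2l1 5.37% (4.47 to 6.39). In the progenitor gate the shares were 61.5% (60.7 to 62.4), 34.6% (33.7 to 35.4) and 3.92% (3.59 to 4.28). The order Mcl1, Bcl2, Bcl2l1 was therefore the same at both ends. The Mcl1 share was the higher one in the stem gate here, but the lower one with tag limits at the 90th and 10th percentiles (59.6% against 62.9%), in cells of 10000 to 20000 UMIs (66.1% against 71.2%) and in cells without an Mki67 or Top2a UMI (65.5% against 71.6%). The libraries did not place that difference alike: the stem gate share of Mcl1 was 71.8% (68.2 to 75.2) in suffix 1 and 62.7% (60.2 to 65.1) in suffix 2, and the progenitor share 60.4% (59.0 to 61.7) and 62.2% (61.1 to 63.3), so that the intervals of the gates overlapped in suffix 2.

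**Figure D1:**
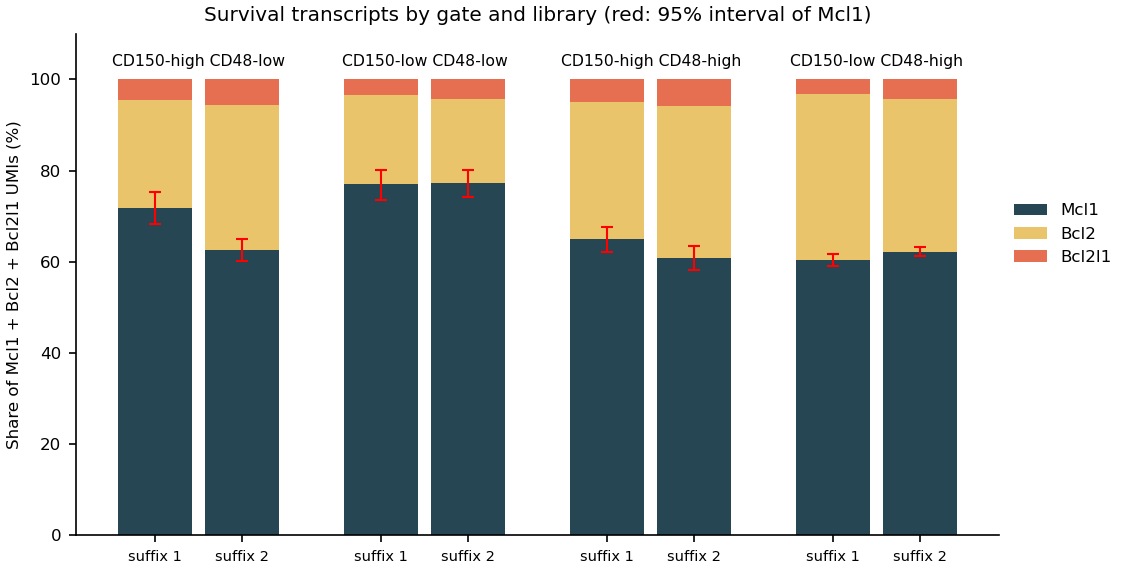
Stacked bars show the percent of Mcl1, Bcl2 and Bcl2l1 among their summed UMIs for the 4 gates in each library, and red bars give the 95% interval of the Mcl1 percent. Mcl1 fills over 60% of every bar, and most in the CD150-low CD48-low gate (77.0% and 77.2%).

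The CD150-low CD48-low gate had the lowest Bcl2 level. Bcl2 measured 53.04 CPM (44.4 to 62.8) there in suffix 1 and 53.5 CPM (45.4 to 62.6) in suffix 2, below every other gate in the same library. Mcl1 reached 208 and 222 CPM there. The Mcl1 share was 77.1% (74.9 to 79.2) over both libraries and Mcl1 UMIs outnumbered Bcl2 UMIs 4.05-fold (3.55 to 4.62), against 2.23-fold (2.04 to 2.46) in the stem gate, 1.97-fold (1.81 to 2.15) in the CD150-high CD48-high gate and 1.78-fold (1.71 to 1.85) in the progenitor gate. Between the 2 CD48-low gates, Bcl2 was higher in the stem gate by 0.69 on the log2 scale (0.49 to 0.90), with 0.39 (0.04 to 0.73) in suffix 1, where the CPM intervals of these gates overlapped, and 0.80 (0.54 to 1.08) in suffix 2.

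In single cells too, Mcl1 was the more abundant one more often than Bcl2. UMIs of each cell were drawn down at random to 9000, and 216 cells with fewer were not used. After this thinning 59.7% of stem gate cells held more Mcl1 than Bcl2 UMIs and 17.7% more Bcl2 than Mcl1, against 55.2% and 20.4% in the progenitor gate and 71.2% and 8.87% in the CD150-low CD48-low gate. The libraries placed the stem and progenitor gates in opposite order. The thinned share with more Mcl1 was 71.8% (64.0 to 78.7) in the stem gate and 53.1% (49.8 to 56.5) in the progenitor gate of suffix 1. In suffix 2 it was 54.5% (49.3 to 59.8) and 56.4% (53.9 to 58.9), with overlap. Without thinning, the share with more Mcl1 was 65.9%, 65.1% and 75.8% in these gates. At least 1 Mcl1 UMI was seen in 77.6% of thinned stem gate cells and 74.3% of thinned progenitor cells (86.7% and 91.5% before thinning), and at least 1 Bcl2 UMI in 49.9% and 47.8% (62.9% and 65.1% before thinning). The near equality for Bcl2 joined opposite directions. A Bcl2 UMI was seen in 42.3% of thinned stem gate cells and 52.2% of thinned progenitor cells of suffix 1, and 53.2% and 45.2% in suffix 2. No cell type in these libraries should lack Mcl1 or Bcl2, so the share that free RNA alone gives could not be measured.

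**Figure D2:**
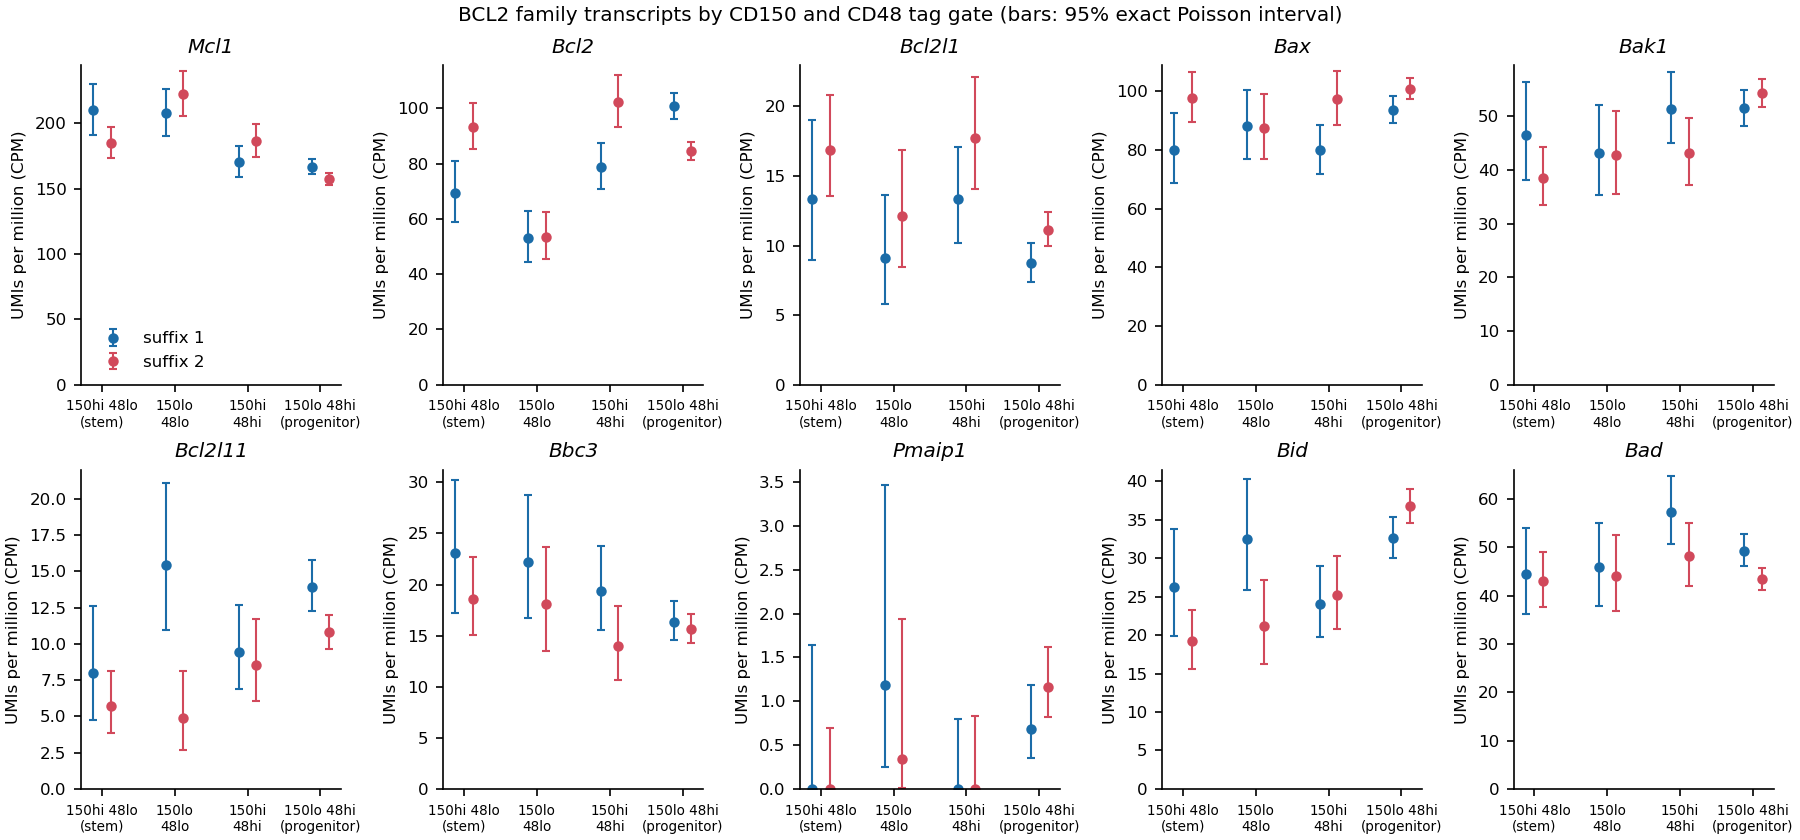
Points show the CPM of each of the 10 genes in the 4 tag gates (150 and 48 stand for the CD150 and CD48 tags, hi and lo for high and low), blue for suffix 1 and red for suffix 2, with 95% exact Poisson intervals. Bcl2 is lowest in the CD150-low CD48-low gate of each library (53.04 and 53.5 CPM), and Pmaip1 lies at or near 0 throughout.

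The question of which members separate stem from progenitor cells was put to summed UMIs, in which fewer cells of a type and less RNA per cell cannot be told apart. A gene was called where it differed at least 1.5-fold in the same direction in each library, among the 9711 genes with at least 400 UMIs; 9 of the 10 members reached that number and Pmaip1 did not. Bcl2l1 was called higher and Bcl2l11 lower in the stem gate, that is 1 of 9 members in each direction. The call of Bcl2l1 was lost under 7 alternatives, among them cells of 10000 to 20000 UMIs, and that of Bcl2l11 with a filter of over 2500 genes and under 5% mitochondrial UMIs per cell, and neither was left at 2-fold. Over all tested genes 7.58% were called higher and 9.19% lower, so the members' counts lie near the background. The Bcl2l1 difference was shared by the CD150-high CD48-high gate, whose log2 ratio over the progenitor gate was 0.61 (0.16 to 1.04) in suffix 1 and 0.67 (0.30 to 1.03) in suffix 2. That of the CD150-low CD48-low gate was 0.06 (-0.36 to 0.46) over both libraries. The median log2 ratio of the members was -0.07 over both libraries, the same as that of all tested genes. Within suffix 1 it was -0.15 against -0.03 for all tested genes, and within suffix 2 it was -0.01 against -0.09.

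Among the survival genes, Bcl2l1 measured 13.3 CPM (9.0 to 19.0) in the stem gate and 8.73 CPM (7.41 to 10.2) in the progenitor gate of suffix 1, and 16.9 CPM (13.6 to 20.8) and 11.2 CPM (10.0 to 12.4) in suffix 2. The stem gate was the higher one in each library, by 0.61 on the log2 scale (-0.01 to 1.18) and 0.60 (0.25 to 0.94), just past the 1.5-fold limit and resting on 30 and 89 stem gate UMIs. Mcl1 measured 210 CPM (192 to 230) against 167 CPM (161 to 173) in suffix 1 and 185 CPM (174 to 197) against 158 CPM (153 to 162) in suffix 2. That is a log2 ratio of 0.26 (0.18 to 0.34) over both libraries, without overlap of the gates' intervals in either library and below the limit for a call. Bcl2 took opposite sides. It measured 69.3 CPM (58.8 to 81.0) in the stem gate and 100.9 CPM (96.3 to 106) in the progenitor gate of suffix 1, but 93.4 CPM (85.3 to 102) and 84.5 CPM (81.3 to 87.8) in suffix 2.

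The Mcl1 ratio moved with proliferation and depth. Among cells of 10000 to 20000 UMIs without an Mki67 or Top2a UMI, the stem over progenitor log2 ratio of Mcl1 was -0.04 (-0.14 to 0.07), whereas Bcl2 was higher in the stem gate by 0.35 (0.18 to 0.51) and Bcl2l1 by 0.40 (0.02 to 0.77). Values of each library are not given for these cells, and over all cells of the gates the libraries placed Bcl2 on opposite sides. In these cells Bcl2l11 was lower in the stem gate by a log2 ratio of -0.98 (-1.56 to -0.43) and Bid by -0.85 (-1.16 to -0.56). The ratio of Bbc3 was 0.33 over all cells of the gates and -0.31 (-0.64 to 0.01) in these cells, so its direction depended on the cells compared. Without the immunoglobulin-rich cells, a comparison chosen after the data were seen, the log2 ratios were 0.26 for Mcl1, -0.08 for Bcl2 and 0.63 for Bcl2l1, and 2 members were called.

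Of the effectors, Bax and Bak1, which open the mitochondrial pore once activated, neither was called. Bax measured 79.9 CPM (68.7 to 92.5) in the stem gate and 93.8 CPM (89.4 to 98.5) in the progenitor gate of suffix 1, and 97.8 CPM (89.5 to 107) and 101 CPM (97.4 to 105) in suffix 2. The gates' intervals overlapped in each library, although the log2 ratio in suffix 1 was -0.23 (-0.46 to -0.009). Bak1 measured 46.6 CPM (38.1 to 56.4) and 51.5 CPM (48.2 to 55.0) in suffix 1, where the intervals overlapped, and 38.5 CPM (33.4 to 44.2) and 54.3 CPM (51.8 to 57.0) in suffix 2, where they did not. Over both libraries the log2 ratio was -0.09 (-0.21 to 0.03) for Bax and -0.38 (-0.56 to -0.21) for Bak1. Bax was the more abundant effector in all 4 gates, at 87.9 to 98.4 CPM against 41.0 to 53.3 CPM for Bak1.

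The BH3-only genes went separate ways. Bcl2l11 encodes BIM, the sensor of cytokine loss, and measured 7.99 CPM (4.74 to 12.6) in the stem gate and 13.9 CPM (12.3 to 15.8) in the progenitor gate of suffix 1, and 5.70 CPM (3.84 to 8.13) and 10.8 CPM (9.67 to 12.02) in suffix 2. It was lower in the stem gate in each library, with a log2 ratio of -0.90 (-1.36 to -0.48) over both. Bid, whose protein is cut by caspase-8 and links death receptors to the mitochondria, measured 26.2 CPM (19.9 to 33.8) and 32.6 CPM (30.0 to 35.4) in suffix 1 and 19.2 CPM (15.6 to 23.3) and 36.7 CPM (34.6 to 38.9) in suffix 2. The Bid log2 ratio was -0.32 (-0.73 to 0.07) and -0.94 (-1.25 to -0.64), and only the second lies past 1.5-fold, so Bid was not called.

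Bbc3 encodes PUMA, a p53 target, and measured 23.1 CPM (17.2 to 30.3) and 16.4 CPM (14.5 to 18.4) in the stem and progenitor gates of suffix 1, and 18.6 CPM (15.1 to 22.7) and 15.6 CPM (14.3 to 17.1) in suffix 2. Its gates overlapped in each library. The Bbc3 log2 ratio was 0.33 (0.06 to 0.58) over both libraries, 0.49 (0.04 to 0.92) in suffix 1 and 0.25 (-0.08 to 0.57) in suffix 2. Bad, whose protein is held inactive by phosphorylation under growth factor signalling, measured 44.4 CPM (36.1 to 54.0) and 49.3 CPM (46.1 to 52.7) in suffix 1, and 43.1 CPM (37.7 to 49.1) and 43.4 CPM (41.1 to 45.8) in suffix 2, again with overlap in each. Bad was the most abundant BH3-only transcript in every gate, and its log2 ratio over both libraries was -0.07 (-0.24 to 0.10). Pmaip1, which encodes the MCL1-binding protein NOXA, gave 52 UMIs in all 3986 cells, of which 48 lay in the progenitor gate, 4 in the CD150-low CD48-low gate and 0 in the other two. At the stem gate's total of 7519136 UMIs a count of 0 read as at most 3 counts allows up to 0.40 CPM, against 0.99 CPM (0.73 to 1.31) in the progenitor gate. Within suffix 2 this limit was 0.57 CPM against 1.17 CPM, but within suffix 1 it was 1.33 CPM against 0.68 CPM, so that a lower level in the stem gate was not detectable there at this depth.

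**Figure D3:**
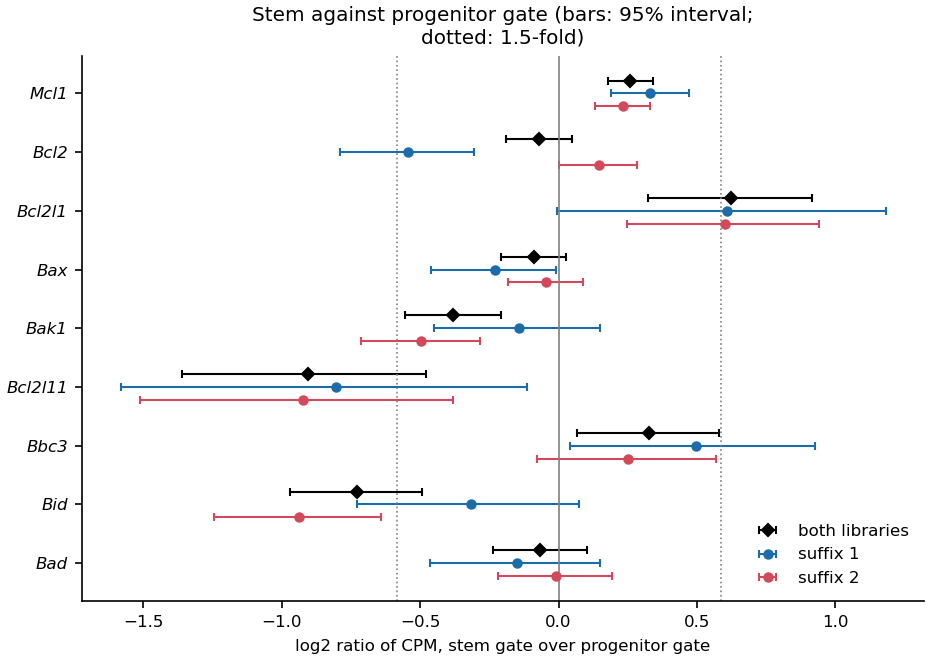
Log2 ratios of CPM in the stem gate over the progenitor gate are shown for 9 members, with diamonds for both libraries together, circles for each library, bars for 95% counting intervals and dotted lines at 1.5-fold. Bcl2l1 lies just past the upper line and Bcl2l11 past the lower line in each library, and Bcl2 lies at -0.54 in suffix 1 and 0.14 in suffix 2. Pmaip1 has no ratio because the stem gate held 0 of its UMIs.

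The balance of the summed survival genes against the summed 7 effector and BH3-only genes was highest in the stem gate, at 1.31 survival UMIs per death gene UMI (1.23 to 1.40), and lowest in the progenitor gate at 1.002 (0.977 to 1.03). Over both libraries the other gates lay between, at 1.20 (1.11 to 1.30) for CD150-low CD48-low and 1.19 (1.12 to 1.26) for CD150-high CD48-high, and neighbours in this order overlapped in their intervals except the last pair. Within suffix 1 the ratio was 1.28 (1.14 to 1.44) in the stem gate and 1.07 (1.03 to 1.12) in the progenitor gate, and within suffix 2 it was 1.33 (1.23 to 1.43) and 0.963 (0.933 to 0.993). The stem gate was the higher one in each library. In suffix 1 the CD150-low CD48-low and CD150-high CD48-high gates stood at 1.086 (0.97 to 1.21) and 1.088 (1.003 to 1.18). Their intervals there overlapped with those of both the stem and the progenitor gate. In suffix 2 these gates stood at 1.32 (1.18 to 1.46) and 1.30 (1.20 to 1.41), overlapping with the stem gate only. These sums weigh every transcript equally and are dominated by Mcl1, Bcl2 and Bax.

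Between the libraries, 0 of the 9 tested members differed 1.5-fold in the stem gate, where 18% of tested genes did so, or in the progenitor gate, where 4.01% did. In the stem gate the intervals of Mcl1, Bcl2 and Bax left out 0, and Bcl2 differed most of these, being higher in suffix 2 by 0.43 on the log2 scale (0.17 to 0.70), whereas in the progenitor gate Bcl2 was lower in suffix 2 by a log2 ratio of -0.26 (-0.34 to -0.17). The stem gates of the libraries also differed in proliferation, with an Mki67 or Top2a UMI in 23.3% of suffix 1 and 7.57% of suffix 2 cells. They differed in progenitor markers as well, whose 5 genes summed to 218 CPM in suffix 1 and 47.1 CPM in suffix 2 (Cd34 at 202 and 40.3 CPM, Flt3 at 13.3 and 2.09 CPM). The part of either in the Bcl2 difference was not tested. In the CD150-low CD48-low gate 2 of 9 members were past 1.5-fold, beside 15.9% of tested genes. There Bcl2l11 measured 15.4 CPM (10.98 to 21.1) in suffix 1 and 4.86 CPM (2.66 to 8.16) in suffix 2, and Bid 32.5 CPM (25.8 to 40.3) and 21.2 CPM (16.2 to 27.2).

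Between the ends of the CD48 range Mcl1 was lower and Bcl2 higher at the top, with a different course between them in each library. Cells of each library were ranked by their CD48 tags and put into 10 bins of equal size. From the lowest to the highest bin, Mcl1 went from 206 CPM (186 to 228) to 159 CPM (148 to 172) in suffix 1 and from 188 CPM (173 to 204) to 127 CPM (119 to 135) in suffix 2. Bcl2 went from 61.5 CPM (50.6 to 74.1) to 133 CPM (122 to 144) and from 83.3 CPM (73.2 to 94.4) to 119 CPM (111 to 127). In suffix 2, however, Bcl2 was lower in the middle, at 60.2 CPM (53.2 to 68.0) in bin 7, and stood above its first value only in bins 8 to 10, while Mcl1 lay between 188 and 203 CPM in bins 1 to 5. The Mcl1 share of survival UMIs was 73.7% in the lowest and 52.6% in the highest bin of suffix 1. In suffix 2 it was 65.7% in the lowest bin, 67.5% to 70.0% in bins 2 to 7, and 59.6%, 56.5% and 50.1% in bins 8 to 10. In the highest bin Mcl1 still exceeded Bcl2 without overlap of the intervals in suffix 1, with 713 and 593 UMIs, and overlapped with it in suffix 2, with 947 and 885 UMIs. Bbc3 was lower at the top of the range, with 25.5 CPM (18.7 to 34.0) against 6.93 CPM (4.71 to 9.84) in suffix 1 and 22.0 CPM (17.0 to 28.1) against 9.40 CPM (7.33 to 11.9) in suffix 2. Bid was higher at the top in suffix 2, with 18.3 CPM (13.7 to 23.9) against 42.2 CPM (37.6 to 47.1), and its intervals overlapped in suffix 1. The median depth moved along with the tag, from 11925.5 to 29254.5 UMIs in suffix 1 and from 11708 to 29396 in suffix 2, as did the share of cells with an Mki67 or Top2a UMI, from 17.3% to 88.0% and from 6.43% to 87.6%.

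**Figure D4:**
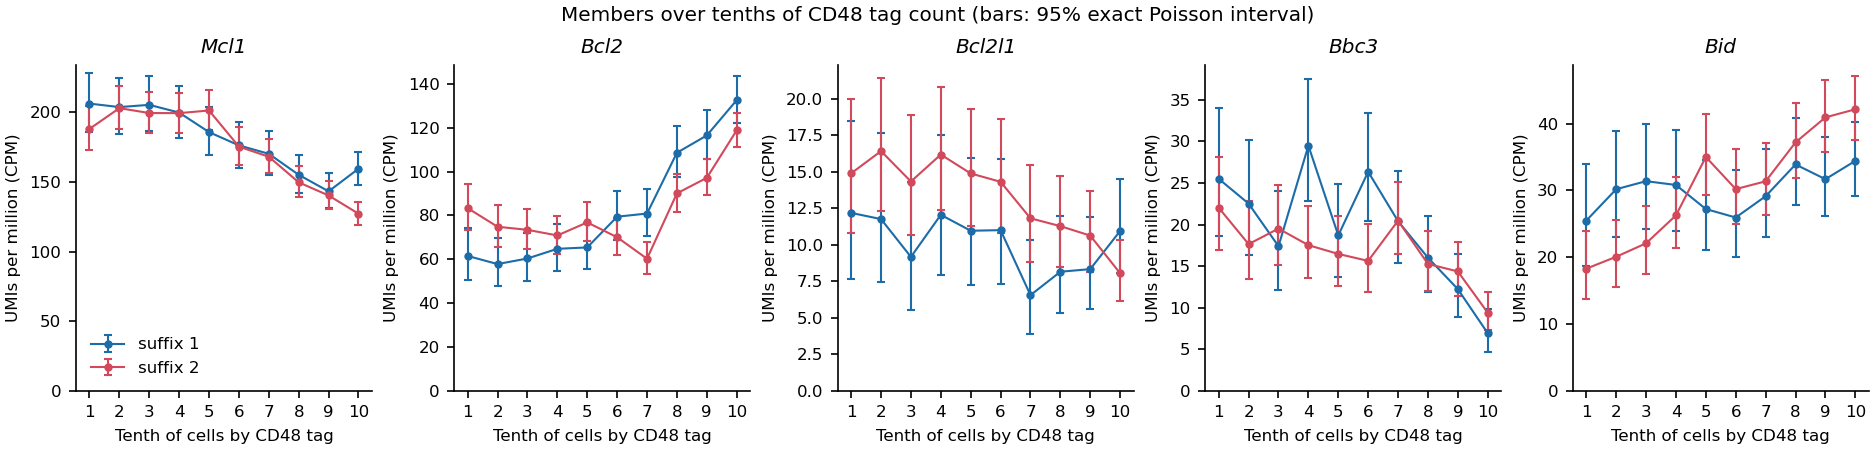
CPM values of 5 members are plotted over 10 equal bins of cells ranked by CD48 tag count within each library (1 lowest, 10 highest), blue for suffix 1 and red for suffix 2, with 95% exact Poisson intervals. Mcl1 and Bbc3 end lower and Bcl2 ends higher than they start in each library, with Bcl2 at 133 and 119 CPM in the last bin, and Bcl2 of suffix 2 is lowest in bin 7 at 60.2 CPM.

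Along the CD150 tag, ranked in the same way with ties split by rank, the median depth was 13839 UMIs in the lowest and 15094 in the highest bin of suffix 1, and 14841 and 15096 in suffix 2. The share of cells with an Mki67 or Top2a UMI was 40% and 35.3% at these ends in suffix 1 and 45.8% and 12.4% in suffix 2, and its part in the values below was not tested. Bid measured 31.0 CPM (24.3 to 39.1) in the lowest and 22.1 CPM (16.8 to 28.5) in the highest bin of suffix 1, and 35.8 CPM (30.4 to 42.0) and 22.2 CPM (17.9 to 27.2) in suffix 2. The Bid intervals of the ends overlapped in suffix 1 and not in suffix 2. Bcl2l11 measured 16.4 CPM (11.6 to 22.5) and 7.11 CPM (4.28 to 11.1) in suffix 1, and 11.2 CPM (8.29 to 14.9) and 7.87 CPM (5.42 to 11.1) in suffix 2, where the intervals overlapped. Bcl2 measured 112 CPM (99.2 to 127) and 82.3 CPM (71.8 to 94.0) at the ends in suffix 1 and 81.9 CPM (73.6 to 91.0) and 101 CPM (91.3 to 111) in suffix 2, so the order of the ends differed between the libraries. It followed no steady course in suffix 2, where it was lowest in bin 6 at 62.2 CPM (54.8 to 70.2), and in each library it was lower in bin 6 than in bin 3. Bins 3 and 6 had medians of 2 and 9 CD150 tags in suffix 1 and of 5 and 30.5 in suffix 2. All of these lie under the CD150-high limits.

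The progenitor gate was divided further, by genes chosen after the gate values had been seen. Dntt encodes terminal deoxynucleotidyl transferase, an enzyme of lymphoid progenitors. Of the progenitor gate, 800 cells had at least 2 Dntt UMIs and 1489 had none. Bcl2 measured 132 CPM (125 to 140) in the Dntt cells and 66.4 CPM (60.4 to 72.8) in the cells without in suffix 1, and 128 CPM (121 to 136) and 64.9 CPM (61.3 to 68.7) in suffix 2. The Bcl2 level was thus 1.99-fold higher (1.87 to 2.12) in the Dntt cells, with log2 ratios of 0.99 and 0.98 in the libraries. By the same 1.5-fold rule Bcl2 was called as 1 of 9 members, against 1.86% of all tested genes called higher in Dntt cells, and 0 of 9 members were called lower, against 5.47%.

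Other members differed between the Dntt classes by less than the rule asks in at least 1 library. Bcl2l1 was lower in the Dntt cells by a log2 ratio of -0.63 (-0.92 to -0.34), at 7.19 against 10.7 CPM in suffix 1 and 8.47 against 12.6 CPM in suffix 2. Mcl1 was lower by -0.23 (-0.30 to -0.16), and its share of survival UMIs was 51.5% in Dntt cells and 69.0% in cells without. Bcl2l11 was higher by 0.66 (0.41 to 0.92), so BIM transcripts and Bcl2 transcripts were both more abundant in Dntt cells, and the ratio of Pmaip1 was 1.20 (0.28 to 2.16) on 28 and 17 UMIs. Bbc3 was lower by -0.38 (-0.61 to -0.15). Over both libraries the intervals of Bax, Bak1 and Bad included 0.

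Dntt cells were deeper, with a median of 20991.5 against 14836 UMIs, and so cells of 15000 to 25000 UMIs were compared within classes of Mki67 and Top2a. Without an Mki67 or Top2a UMI, Bcl2 was at 118 CPM (97.7 to 142) in Dntt cells and 53.3 CPM (40.01 to 69.5) in cells without Dntt in suffix 1, and at 120.4 CPM (101.4 to 142) and 60.3 CPM (51.4 to 70.3) in suffix 2. With such a UMI it was at 130.3 CPM (114 to 148) and 77.2 CPM (63.0 to 93.8) in suffix 1, and at 123 CPM (107 to 140) and 62.5 CPM (55.3 to 70.4) in suffix 2. The 4 comparisons gave no overlap of intervals, and over both libraries the log2 ratios were 1.03 (0.77 to 1.30) and 0.94 (0.74 to 1.14), close to the 0.99 found at all depths. The Bcl2l1 ratios in these classes were -1.28 (-2.28 to -0.39) and -1.20 (-1.97 to -0.48).

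**Figure D5:**
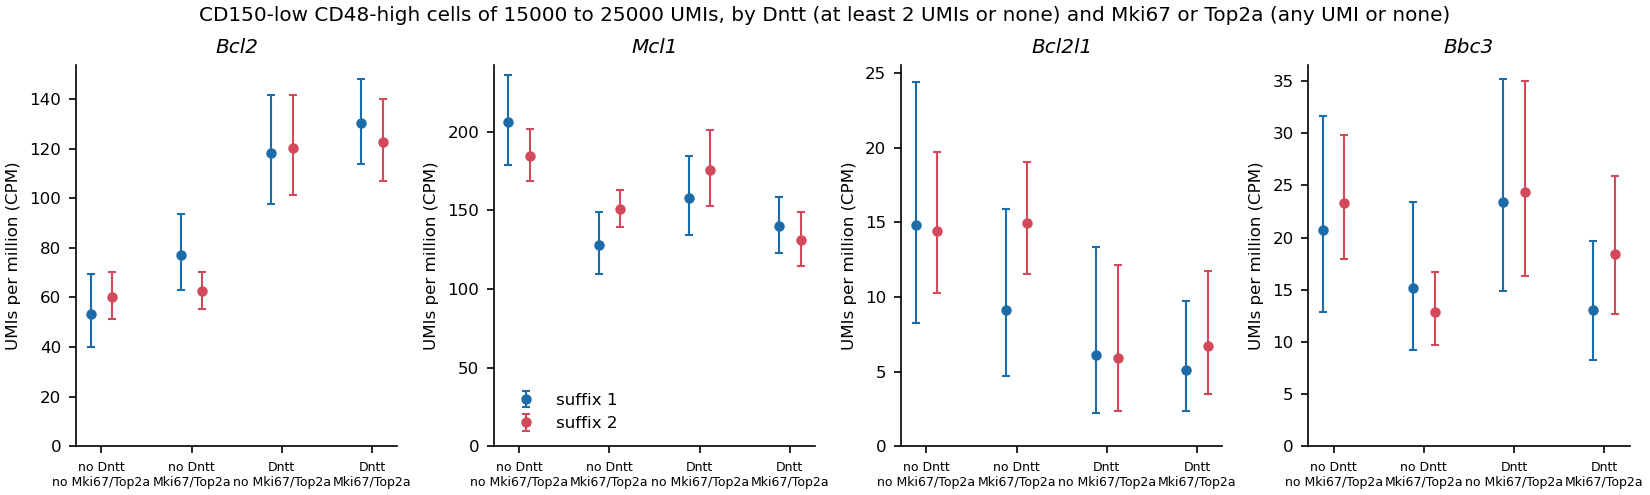
CPM values of Bcl2, Mcl1, Bcl2l1 and Bbc3 are shown for CD150-low CD48-high cells of 15000 to 25000 UMIs, split by Dntt (at least 2 UMIs or none) and by any UMI of Mki67 or Top2a, blue for suffix 1 and red for suffix 2, with 95% exact Poisson intervals. Bcl2 lies between 118 and 130.3 CPM in all Dntt classes and between 53.3 and 77.2 CPM in all classes without Dntt.

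The split by proliferation genes had Bcl2 among its calls as well, and Bbc3 in addition. In the progenitor gate, 1299 cells had an Mki67 or Top2a UMI and 1228 did not. Bbc3 measured 11.6 CPM (9.71 to 13.7) with such a UMI and 25.5 CPM (21.6 to 29.8) without in suffix 1, and 12.4 CPM (10.9 to 14.1) and 21.1 CPM (18.5 to 24.0) in suffix 2. Mcl1 measured 147 CPM (140 to 154) and 205 CPM (193 to 216), and 135 CPM (130 to 140) and 197 CPM (189 to 205). Bcl2 went the other way, at 114 CPM (108 to 121) and 75.1 CPM (68.4 to 82.3), and 96.9 CPM (92.6 to 101.4) and 63.3 CPM (58.8 to 68.1). Bbc3 was called lower (1 of 9 members, against 4.9% of all tested genes) and Bcl2 higher (1 of 9, against 6.81%).

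Among progenitor gate cells of 15000 to 25000 UMIs, a comparison added after the data were seen, the log2 ratio of cells with over cells without an Mki67 or Top2a UMI was -0.36 (-0.47 to -0.25) for Mcl1, -0.66 (-0.998 to -0.31) for Bbc3 and 0.15 (-0.01 to 0.31) for Bcl2, against -0.52, -0.90 and 0.62 at all depths. Among the cells of this depth with no Dntt, the log2 ratio was -0.39 (-0.54 to -0.24) for Mcl1, -0.75 (-1.22 to -0.29) for Bbc3 and 0.18 (-0.07 to 0.42) for Bcl2. Among Dntt cells of that depth it was -0.31 for Mcl1, -0.60 for Bbc3 and 0.08 (-0.14 to 0.31) for Bcl2. The intervals of Bcl2 included 0 in these comparisons over both libraries, although that of suffix 1 without the Dntt split did not (0.31, 0.05 to 0.57), and those of Mcl1 left out 0.

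Mpo and Vwf gave the last splits. In 90 progenitor gate cells with over 1000 CPM of Mpo, the myeloperoxidase of early granulocytes and monocytes, Bcl2 at 131 CPM (118 to 146) and Mcl1 at 121 CPM (108 to 135) could not be separated, and Bid measured 56.1 CPM (47.5 to 65.7) and 34.0 CPM (32.3 to 35.7) in the rest of the gate. Only 12 of these cells were of suffix 1. In the stem gate, the 321 cells with a UMI of Vwf, the von Willebrand factor gene of platelet-biased HSCs, had 96.6 CPM (87.7 to 106) of Bcl2 and the 234 cells without had 70.4 CPM (61.2 to 80.6). Within suffix 1 the values were 100.6 CPM (73.9 to 134) and 61.1 CPM (50.1 to 73.7), and within suffix 2 they were 96.1 CPM (86.8 to 106) and 84.3 CPM (68.6 to 102), where the intervals overlapped.

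Of 61 other genes of the pathway, 47 could be tested between the stem and progenitor gates, 2 were called higher and 5 lower, beside 7.58% and 9.19% of all tested genes, so these lists lie near the background and the calls below describe single genes. A list of 9 regulators of BH3-only genes or proteins (transcription factors, AKT and PIM kinases and a 14-3-3 protein) held both higher calls: Foxo1, a transcription factor of the growth factor pathway, at 28.9 against 8.39 CPM (log2 ratio 1.78, 1.54 to 2.02), and Ddit3, the stress factor CHOP, at 40.3 against 21.5 CPM (0.90, 0.71 to 1.09). Cycs, which encodes cytochrome c, was lower in the stem gate by the rule, at 50.9 against 122 CPM. Lower by the rule were also Bok, a BAX relative, among 4 tested other death members (1.73 against 6.89 CPM), Slc25a5, an ADP/ATP carrier, among 5 mitochondrial pore genes (315 against 663 CPM), and Cdkn1a, the cell cycle inhibitor p21, among 6 tested p53 genes (6.65 against 11.2 CPM). Among p53 genes with too few UMIs to be tested, Fas, Perp and Zmat3 were higher in the stem gate in each library. They stood at 5.85 against 1.30, 9.44 against 1.75 and 4.92 against 1.86 CPM. Their log2 ratios were 2.14, 0.97 and 1.34 in suffix 1 and 2.12, 2.72 and 1.42 in suffix 2. Phlda3 and Eda2r, also untested, took opposite sides in the libraries, and Sesn2 had log2 ratios of 0.07 and 0.35. The 5 inhibitors of apoptosis, the 5 genes listed under MCL1 protein turnover and the 1 other survival member that could be tested gave 0 calls in either direction. The other survival member, Bcl2l2, was still close to the limit, at 12.8 against 8.11 CPM and log2 ratios of 0.57 and 0.71 in the libraries. Trib1, named after its values were seen, was at 13.4 against 4.39 CPM over both libraries but had log2 ratios of -1.13 in suffix 1 and 2.15 in suffix 2. Its place in the turnover list is not tested by these data.

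Gene by gene likeness was read over the 8 combinations of gate and library, as Pearson's r of log2(CPM + 10) among 6247 genes, and is a description of 8 points that share libraries and depth. The genes most like Bcl2 were Setd3 (r = 0.97), Copg1 (0.95) and Ppm1b (0.90). Those most like Mcl1 were Sdf2 (0.98), Gtpbp2 (0.98) and Icam1 (0.97), and those most like Bcl2l1 were Tm9sf2 (0.99), Frrs1 (0.98) and Bin2 (0.98). All were picked as the highest among 6247 values, and such a choice alone favours a high r. Over the combinations Setd3 ranged from 45.1 to 54.7 CPM, Copg1 from 45.2 to 53.1 CPM and Ppm1b from 25.4 to 33.2 CPM. Bcl2 itself ranged from 53.04 to 102 CPM.

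Other cell types were checked by fixed marker lists. The 5 B or plasma cell markers summed to 99.9 CPM in the stem gate and 3407 CPM in the progenitor gate, the 5 T or NK cell markers to 55.3 and 177 CPM, the 5 erythroid markers to 64.6 and 42.7 CPM, the 5 granulocyte markers to 5.85 and 8.62 CPM and the 5 monocyte markers to 285 and 252 CPM, with Csf1r and Adgre1 at 0 in the stem gate. In the stem and progenitor gates the lymphoid sums were higher in suffix 2. In the CD150-low CD48-low gate they were higher in suffix 1, at 294 against 126 CPM (B or plasma) and 44.7 against 39.9 CPM (T or NK). The CD150-high CD48-high gate had 110 CPM of T or NK markers in suffix 1 and 86.4 CPM in suffix 2. Its B or plasma sum was 43.2 CPM in suffix 1 and 104 CPM in suffix 2. The B or plasma cell markers summed to 42.6 CPM in the stem gate and 552 CPM in the progenitor gate of suffix 1. In suffix 2 they summed to 124 and 5040 CPM, and Igkc alone gave 4946 CPM of the progenitor value. The T or NK cell markers summed to 17.8 CPM and 130.04 CPM in suffix 1 and to 71.4 CPM and 203 CPM in suffix 2. The erythroid markers summed to 30.2 CPM and 26.2 CPM in suffix 1 and to 79.4 CPM and 52.1 CPM in suffix 2. Apart from the comparison without immunoglobulin-rich cells, their part in the members' values was not tested. Bcl2, Bax and Bid each overlap another annotated gene on the same strand, and reads of such pairs may be split or dropped by the counting.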

How the data were processed

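LSK cells of young and old mice were run by the authors as 1 Chromium 3' v3 CITE-seq library per age. Per the study's methods and the submitters' processing notes, Cell Ranger 3.1.0 counted UMIs per gene and cell (mm10, GRCm38) and its aggr step put the libraries together after a depth normalization whose mode was not stated; the deposited matrix holds UMI counts per cell. Tags were counted with CITE-seq-Count, and the deposited tag table holds log10 values, which were turned back into tag counts. The matrix had 4688 cells, of which 4068 passed the filter and 82 of these had no tags.

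UMIs were summed per gate and suffix and divided by the total of the same cells (CPM). Intervals were exact Poisson for levels, exact conditional binomial for ratios and exact Clopper-Pearson for shares, at 95%; a count of 0 was read as at most 3 counts. They cover counting error only. The libraries are of different ages and are not replicates of a group, so no test over samples was run and no p-value was computed. Calls needed 1.5-fold in each library among genes with at least 400 UMIs. Doublets were not called and the study's methods name no removal; leaving out the deepest 5% of cells was an alternative. Python 3.11.15, numpy 2.4.6, scipy 1.17.1 and pandas 2.3.3 were used.

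All 10 members are named, with up to 4 called genes per direction of each pathway list and the 3 genes most like each survival gene. One called gene of these lists is not reported here. Members and lists were chosen with earlier results of these data known. The Dntt, Mki67 or Top2a, Mpo and Vwf subsets were chosen after the gate values were seen. Promoters came from RefSeq (GRCm38.p6), where 9 of the 10 members were found.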

Additional observations from a re-analysis of the deposited data

Results flagged for a closer look

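The stem over progenitor ratio of Bcl2 pointed in opposite directions in the libraries. It was -0.54 on the log2 scale (-0.79 to -0.31) in suffix 1, with 156 and 1780 UMIs, and 0.14 (0.003 to 0.28) in suffix 2, with 492 and 2606 UMIs, a difference of 0.69. With 1 library per suffix the difference was not tested. The share of progenitor gate cells with at least 2 Dntt UMIs, in which Bcl2 was higher, also differed, with 405 of 912 cells in suffix 1 and 395 of 1615 in suffix 2, and its part in the difference was not tested.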

How the results depend on the processing

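Of 154 recomputed ratios and shares, 108 stayed within the counting interval of the reported value and 46 did not. Bcl2l1, Bax, Bcl2l11 and Bid kept their direction in all 14 alternatives, Bak1 in 13, Mcl1 and Bbc3 in 12, Bad in 9 and Bcl2 in 5. The log2 ratio of Mcl1 became 0.38 with tag medians as limits, -0.12 with the 90th and 10th percentiles, 0.35 with over 2500 genes and under 5% mitochondrial UMIs (57 stem and 238 progenitor cells), 0.031 in cells of 10000 to 20000 UMIs, 0.17 after thinning, 0.16 as a mean over cells and -0.038 without cells holding an Mki67 or Top2a UMI. That of Bcl2 was in the same order -0.44, 0.051, -0.45, 0.36, 0.081, 0.093 and 0.35, then 0.065 without the deepest 5% of cells, -0.54 in suffix 1 alone and 0.14 in suffix 2 alone. Bcl2l1 moved to 0.28 with the 90th and 10th percentiles and 1.41 under the strict cell filter. The Mcl1 share in the stem gate moved to 68.0% with tag medians, 59.6% with the 90th and 10th percentiles, 71.8% in suffix 1 and 62.7% in suffix 2. In the progenitor gate it moved to 57.1% and 62.9% with these limits, 55.1% under the strict filter, 71.2% in cells of 10000 to 20000 UMIs, 65.0% after thinning, 65.6% as a mean over cells, 64.2% without the deepest cells, 71.6% without Mki67 or Top2a UMIs and 60.4% in suffix 1. Of the 2 members called, 1 was left (Bcl2l11) with the 90th and 10th percentiles, with limits set over both libraries, without a cell filter, at 10000 to 20000 UMIs, as a mean over cells, without the deepest cells and without Mki67 or Top2a UMIs, and 0 were left at 2-fold or at least 1000 UMIs, which leaves both genes out. Under the strict cell filter the 2 called were Bcl2l1 and Bid. Size factors in place of totals shift all genes by 0.07. Causes were not tested. The gates were compared within each library, and a paired test over the libraries was not run. Depth limits Pmaip1 (52 UMIs), Bcl2l1 and Bcl2l11, and replicates across mice are lacking.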
